A study of Homo sapiens with 6 samples.

Results

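The genes described here are the IGF receptors, the insulin receptor substrates and the IGF binding proteins, namely IGF1R, INSR, IGF2R, IRS1, IRS2, IGFBP2, IGFBP3, IGFBP4, IGFBP5 and IGFBP6. They were chosen by symbol and are 10 of the 35268 named genes in the table. Poly(A) RNA was sequenced from Rh30 cells, an established line of fusion-positive rhabdomyosarcoma (FP-RMS) that carries the PAX3-FOXO1 fusion, so that both groups are the same line. Control cultures received the vehicle DMSO alone, and treated cultures received YK-4-279, dissolved in DMSO, at 1 µM. RNA was taken after 24 hours, with 3 libraries in each group. YK-4-279 is a small molecule inhibitor of ETS transcription factors, and the comparison asks how gene expression in FP-RMS cells responds to it. The labels number the libraries of a group without saying that they came from separate cultures, so p-values measure the spread between these samples, which may be technical.

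IGF1R and INSR are receptor tyrosine kinases on the cell surface. Ligand binding makes them phosphorylate IRS1 and IRS2, the docking proteins that recruit PI3K and GRB2 and so engage the AKT and ERK pathways. IGF2R, the cation-independent mannose 6-phosphate receptor, takes up IGF2 for degradation in lysosomes without kinase signalling, and the secreted IGF binding proteins hold IGFs outside the cell and set how much ligand is free. Rhabdomyosarcomas are known for high IGF2 expression, and IGF1R is a known transcriptional target of PAX3-FOXO1.

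The libraries held between 16724650 and 24677433 reads on named genes. DMSO replicate 1 was the shallowest and stood apart, with a mean correlation across genes of 0.989 to the other libraries, which had 0.992 to 0.993, and with 6.05% of reads from mitochondrial genes where the other libraries had 4.74 to 5.03%. Of 12 rhabdomyosarcoma markers, 11 had a mean of at least 100 normalized counts in these cells, and MYF5 was at or near 0. Of 6 fibroblast markers 3 had such a mean, and their summed level was 2696 to 2861 in DMSO and 3071 to 3253 with YK-4-279, with COL1A1 past the threshold (log2 fold change 0.34, limma adjusted p = 0.0375) and DCN near 0 in both groups. Endothelial, leukocyte and epithelial markers reached such a mean for 1 of 5, 0 of 6 and 0 of 5 genes, with CD68 and KRT5 among those at 0 in all libraries. The summed levels were 235.5 to 317.7 and 221.1 to 252.1 for endothelial, 3.78 to 14.0 and 16.0 to 24.0 for leukocyte, and 50.9 to 68.1 and 59.8 to 90.0 for epithelial markers in DMSO and YK-4-279. The part of these markers in the results was not tested.

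A normalized count is a gene's reads divided by a factor of its library, and limma was run on log2(normalized count + 1) for the 13930 genes whose mean over the 6 libraries was 10 or more. Log2 fold changes are YK-4-279 over DMSO on that scale, and the added 1 shrinks the change of genes with few reads. At a Benjamini-Hochberg adjusted p under 0.05 from limma, 0 of the 9 genes of the IGF axis that could be tested passed, against 3.41% of all genes tested. At an unadjusted p under 0.05, IRS1, IGFBP6 and IRS2 passed, 3 of 9 against 18.7% of all genes. EdgeR, run on whole reads recovered from the normalized counts, called 0 of the 9 genes, against 3.34% of all genes, and DESeq2 called 2, IRS1 and IGFBP6, both higher with YK-4-279, against 4.85% of all genes called and 1.88% called higher. The mean with YK-4-279 was higher on the log2 scale for 8 of the 9 genes, against 48.0% of all genes, and lower only for INSR. This tally depended on the fit. Without DMSO replicate 1, IGFBP2, IGFBP4 and IGFBP5 also turned negative (-0.11, -0.08 and -0.01). With each library's dependence on GC content and transcript length taken out, IGF2R, IGFBP2 and IGFBP4 did (-0.0012, -0.0701 and -0.0014). The median log2 fold change of the 9 genes was 0.08 and that of all genes tested was -0.01. The libraries of the groups did not overlap for IGF1R, IRS1 and IGFBP6, all higher with YK-4-279, and 10.9% of all genes had such a gap in that direction. In the other direction 0 of the 9 genes had one, against 15.1% of all genes.

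**Figure D1:**
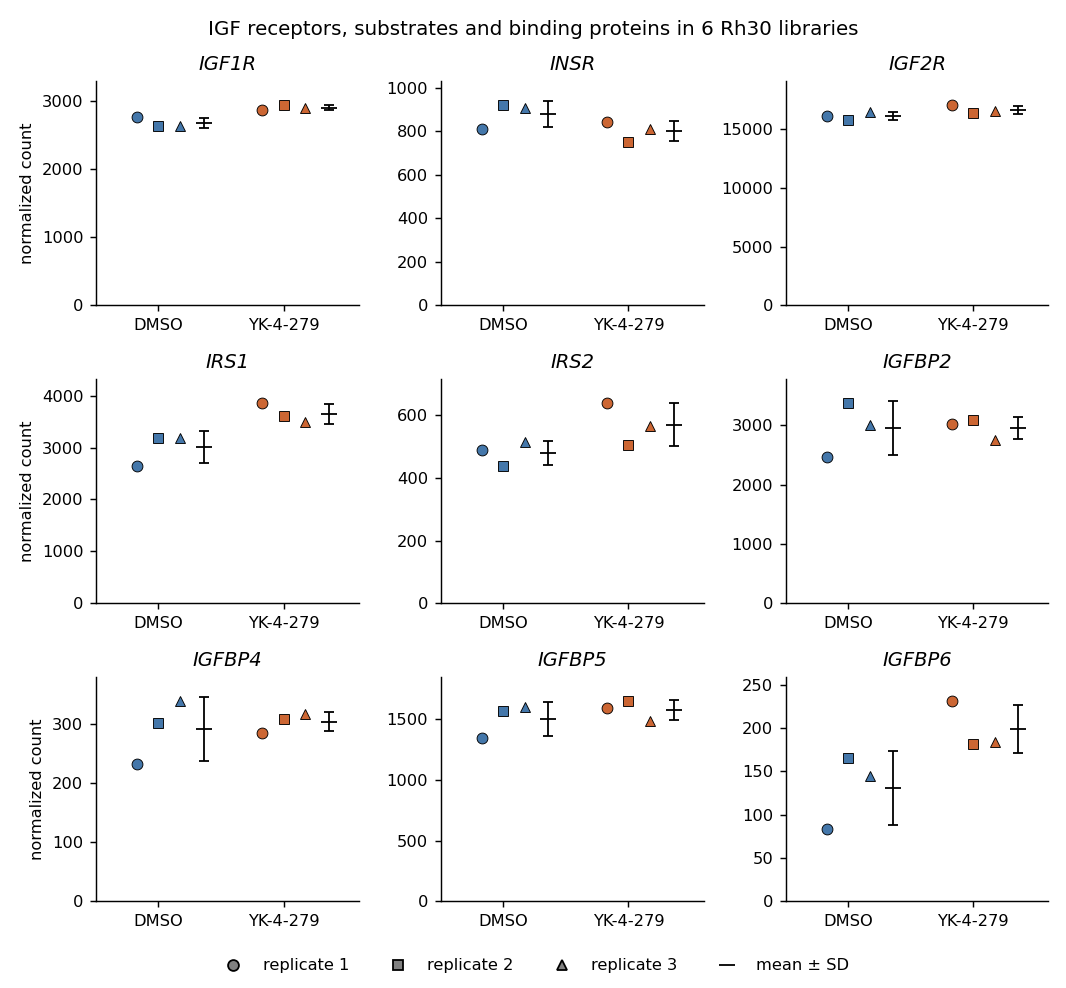
Normalized counts of the 9 expressed genes of the IGF axis in each Rh30 library, with DMSO in blue, YK-4-279 in orange, a symbol per replicate number, and bars for the mean ± SD (n = 3). All YK-4-279 points lie above all DMSO points for IGF1R, IRS1 and IGFBP6, and DMSO replicate 1 (circle) is the lowest point for IRS1, IGFBP2, IGFBP4, IGFBP5 and IGFBP6.

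The 3 receptor genes differed little between the groups, by 8.38% of the DMSO mean for IGF1R, 3.29% for IGF2R and -9.04% for INSR, with none past the threshold. IGF1R (ENSG00000140443.15, chr15:98648539-98964530, + strand, hg38), the type 1 IGF receptor, had 2756, 2632 and 2638 normalized counts in DMSO replicates 1, 2 and 3 and 2863, 2938 and 2897 with YK-4-279. The 3 treated libraries lay above the 3 control libraries without overlap, by a narrow gap. The means were 2675 ± 70.2 and 2900 ± 37.8 (SD, n = 3 each), with a log2 fold change of 0.12 (SE, the standard error, 0.06, 95% confidence interval -0.0045 to 0.24, limma adjusted p = 0.286). INSR (ENSG00000171105.14, chr19:7112255-7294414, - strand), the insulin receptor, which also pairs with IGF1R in hybrid receptors, had 811, 921 and 909 normalized counts in DMSO and 841, 750 and 811 with YK-4-279. DMSO replicate 1 lay within the range of the treated libraries, so the groups overlapped, and the log2 fold change was -0.14 (SE 0.08, interval -0.30 to 0.03, limma adjusted p = 0.378). IGF2R (ENSG00000197081.16, chr6:159969082-160113507, + strand) had 16076, 15739 and 16426 normalized counts in DMSO and 17006, 16349 and 16475 with YK-4-279. The IGF2R values overlapped between groups, and its log2 fold change was 0.05 (SE 0.05, interval -0.06 to 0.16, limma adjusted p = 0.668).

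Without DMSO replicate 1, IGF1R and INSR passed the threshold in opposite directions. IGF1R had a log2 fold change of 0.14 (limma adjusted p = 0.0242) and INSR one of -0.19 (limma adjusted p = 0.0269), in a fit that called 13.1% of all genes, 4.62% higher and 8.46% lower. With each library's dependence on GC content and transcript length taken out, the log2 fold change of IGF1R was 0.06 (limma adjusted p = 0.353). With any other library left out, adjusted p-values from limma reached 0.537 for IGF1R and 0.703 for INSR. The ratio of IGF1R to INSR normalized counts within a library, which is not corrected for length and can be read only between libraries, was 3.40, 2.86 and 2.90 in DMSO and 3.40, 3.92 and 3.57 with YK-4-279. DMSO replicate 1 had about the same ratio as the lowest treated library, and the other control libraries were below all treated ones.

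IRS1 and IRS2 both had higher means with YK-4-279. IRS1 (ENSG00000169047.6, chr2:226731312-226799820, - strand) and IRS2 (ENSG00000185950.9, chr13:109752695-109786583, - strand) are both intracellular docking proteins of IGF1R and INSR. Their promoters are shown because the pair had 2 of the 3 unadjusted p-values under 0.05 and YK-4-279 is directed at ETS factors. Each is the 250 bases before the RefSeq start on GRCh38.p14, read 5′ to 3′ on the strand of the gene (IRS1 chr2:226799821-226800070 and IRS2 chr13:109786584-109786833, both on the - strand). The bases are in lower case with the letters CCGGAA, an extended form of the ETS site, in capitals. Other forms of that site were not searched for, so a window without these letters may still hold one.
IRS1: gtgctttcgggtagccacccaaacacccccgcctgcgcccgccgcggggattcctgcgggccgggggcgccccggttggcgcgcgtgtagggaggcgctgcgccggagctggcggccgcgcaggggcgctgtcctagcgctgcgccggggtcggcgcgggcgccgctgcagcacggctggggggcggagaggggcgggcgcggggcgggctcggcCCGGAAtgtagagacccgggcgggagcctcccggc
IRS2: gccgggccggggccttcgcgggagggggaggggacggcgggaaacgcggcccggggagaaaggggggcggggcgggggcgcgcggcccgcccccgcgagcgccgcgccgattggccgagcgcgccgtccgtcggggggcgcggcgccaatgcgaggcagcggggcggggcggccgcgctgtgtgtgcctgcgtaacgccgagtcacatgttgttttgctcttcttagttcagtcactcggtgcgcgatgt
The IRS1 window holds the ETS letters once, on the gene's own strand, 35 to 30 bases before the start, and the IRS2 window holds them on neither strand. The letters CCGGAA occur on either strand in 14.5% of the 35116 RefSeq promoter windows of this length. Among the 10 genes they occur before the RefSeq start of IGF2R, IRS1, IGFBP3, IGFBP5 and IGFBP6. RefSeq and GENCODE starts can differ, and the window of IGFBP3 lies wholly, and that of IGFBP6 mostly, inside the GENCODE span given for the gene. The letters GTAAACA, bound by FOXO proteins, occur in 2.98% of all windows and among the 10 genes in the window of IGFBP6. GTCACGC, a PAX paired domain motif, occurs in 2.2% of all windows and in the windows of none of the 10. No match overlapped another, and a match describes these windows and shows no binding.

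IRS1 had 2649, 3190 and 3179 normalized counts in DMSO and 3856, 3612 and 3482 with YK-4-279. All treated libraries were above all control libraries, with DMSO replicate 1 the lowest and YK-4-279 replicate 1 the highest. The means were 3006 ± 309 and 3650 ± 190 (SD, n = 3 each), 21.4% higher with treatment, and the log2 fold change was 0.28 (SE 0.08, interval 0.12 to 0.45, limma adjusted p = 0.0586). Without DMSO replicate 1 the log2 fold change of IRS1 was smaller, 0.20, and passed (limma adjusted p = 0.00108), as it did without DMSO replicate 2 at 0.33 (limma adjusted p = 0.0294), a fit that called 4.85% of all genes. Leaving out DMSO replicate 3 or any treated library gave limma adjusted p-values from 0.073 to 0.316, in fits that called 242 and 19 to 46 of all 13930 genes, against 475 with all 6 libraries. DESeq2 called IRS1 at a log2 fold change of 0.29 (adjusted p = 0.0147) and edgeR gave 0.30 (adjusted p = 0.0519).

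IRS2 had 488, 438 and 514 normalized counts in DMSO and 639, 504 and 567 with YK-4-279. YK-4-279 replicate 2 lay below DMSO replicate 3, so the groups overlapped. The means were 480 ± 38.9 and 570 ± 67.6 (SD, n = 3 each), 18.8% higher with treatment, and the log2 fold change was 0.24 (SE 0.10, interval 0.03 to 0.46, limma adjusted p = 0.208). IRS2 passed without DMSO replicate 1, at 0.26 (limma adjusted p = 0.0262), and in no other fit that was run. The ratio of IRS1 to IRS2 normalized counts was 5.43, 7.29 and 6.18 in DMSO and 6.03, 7.16 and 6.14 with YK-4-279, and the treated libraries lay inside the range of the controls.

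**Figure D2:**
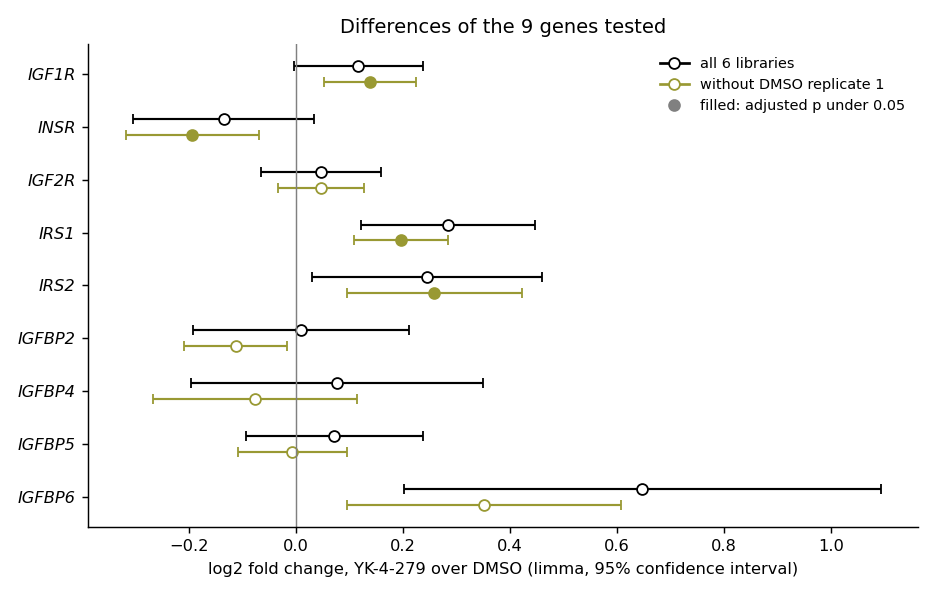
Log2 fold change of each gene tested, YK-4-279 over DMSO, with its 95% confidence interval from limma, for all 6 libraries (black) and without DMSO replicate 1 (olive), filled where the adjusted p was under 0.05. No black point is filled, and IGF1R, INSR, IRS1 and IRS2 are filled without DMSO replicate 1.

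Of the binding proteins, IGFBP6 had the largest difference between groups, IGFBP2, IGFBP4 and IGFBP5 overlapped between them, and IGFBP3 had no reads. IGFBP3 (ENSG00000146674.16, chr7:45912245-45921874, - strand), the main carrier of IGFs in blood, was listed at 0 in all 6 libraries and was not tested. A count of 0 allows up to 3 reads, which is 2.5 to 3.78 normalized counts in these libraries, for counting error only. No exon of another gene overlaps IGFBP3 in GENCODE 44, and the annotation used for counting is not given in the sources used here. EIF4A1, a translation factor that all growing cells use, averaged only 53.1 normalized counts in DMSO in the same table, and the source of that low value was not examined. Whether a loss in counting has a part in the 0 of IGFBP3 was not tested.

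IGFBP2 (ENSG00000115457.10, chr2:216632828-216664436, + strand), which binds both IGFs with a preference for IGF2, had 2470, 3371 and 3010 normalized counts in DMSO and 3020, 3085 and 2744 with YK-4-279. The control libraries spanned the treated ones, and the coefficient of variation was 15.4% in DMSO and 6.13% with YK-4-279. Its log2 fold change was 0.01 (SE 0.09, interval -0.19 to 0.21, limma adjusted p = 0.972), and without DMSO replicate 1 it was -0.11 (limma adjusted p = 0.116). IGFBP5 (ENSG00000115461.5, chr2:216672105-216695549, - strand), a binding protein that also attaches to extracellular matrix and is known from muscle differentiation, lies tail to tail with IGFBP2, with 7668 bases between them. It had 1343, 1566 and 1595 normalized counts in DMSO and 1588, 1647 and 1487 with YK-4-279. DMSO replicate 1 was again the lowest and the remaining libraries overlapped, and the log2 fold change was 0.07 (SE 0.08, interval -0.09 to 0.24, limma adjusted p = 0.659). An antisense gene, DIRC3-AS1, overlaps 7.5% of the exon bases of IGFBP5, and whether reads were counted by strand is not given in the sources used here.

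IGFBP4 (ENSG00000141753.7, chr17:40443450-40457725, + strand), an inhibitory binding protein that the protease PAPPA cleaves, had 233, 303 and 340 normalized counts in DMSO and 286, 310 and 317 with YK-4-279. The treated libraries lay inside the range of the controls, and the log2 fold change was 0.08 (SE 0.13, interval -0.20 to 0.35, limma adjusted p = 0.792). IGFBP6 (ENSG00000167779.9, chr12:53097436-53102345, + strand), which prefers IGF2 over IGF1, had 83.2, 166 and 144 normalized counts in DMSO and 231, 181 and 184 with YK-4-279. The treated libraries were all above the controls, but the distance from DMSO replicate 2 to YK-4-279 replicate 2 was smaller than that between DMSO replicates 1 and 2. The means were 131 ± 42.9 and 199 ± 28.1 (SD, n = 3 each), 51.7% higher with treatment, and the log2 fold change was 0.65 (SE 0.21, interval 0.20 to 1.09, limma adjusted p = 0.107), the largest of the 9 genes.

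The size of the IGFBP6 difference and its call depended on single libraries, while its log2 fold change stayed positive in every fit. DMSO replicate 1 held 66 reads of the gene and YK-4-279 replicate 1 held 270, the lowest and the highest of the 6 libraries. Without DMSO replicate 1 the log2 fold change was 0.35 (limma adjusted p = 0.0576), with means 28.2% apart, and without DMSO replicate 2 it was 0.84 and passed (limma adjusted p = 0.0222). Leaving out DMSO replicate 3 or a treated library gave limma adjusted p-values from 0.101 to 0.421. Those fits called 242 of all 13930 genes without DMSO replicate 3 and 19 to 46 without a treated library, against 475 with all 6 libraries. DESeq2 called IGFBP6 at 0.60 (adjusted p = 0.047) and edgeR gave 0.60 without a call (adjusted p = 0.109).

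DMSO replicate 1 was the lowest of the 6 libraries for 5 of the 9 genes, IRS1, IGFBP2, IGFBP4, IGFBP5 and IGFBP6, against 28.8% of all genes tested. For IGFBP2, IGFBP4 and IGFBP5 the sign of the difference turned when this library was left out, to -0.11, -0.08 and -0.01 on the log2 scale, none past the threshold. The summed level of the 5 binding proteins per kilobase was 2156, 2948 and 2691 in DMSO and 2764, 2778 and 2517 with YK-4-279. Again DMSO replicate 1 was the lowest library, and the treated libraries lay inside the range of the controls. IGFBP6 made up 4.08, 5.94 and 5.67% of this sum in DMSO and 8.84, 6.90 and 7.72% with YK-4-279, and IGFBP2 81.0, 80.9 and 79.1% against 77.3, 78.5 and 77.1%, both without overlap between the groups. With the longest annotated transcripts the sum was 951.3, 1293 and 1214 in DMSO and 1265, 1258 and 1160.0 with YK-4-279, and the IGFBP6 share was 7.43, 10.9 and 10.1% against 15.5, 12.3 and 13.5%, with IGFBP2 at 58.8, 59.1 and 56.2% against 54.1, 55.6 and 53.6%. The sizes thus rested on the transcript chosen, while the groups were apart in both shares with either length. These shares add to a whole, so the IGFBP2 share moves with that of IGFBP6, and they were not tested.

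Levels of different genes were compared as normalized counts per kilobase of the canonical GENCODE transcript. In DMSO, IGFBP2 had the highest level at 2087 ± 321 per kilobase (SD, n = 3), followed by IGF2R at 1144 ± 24.4 and IRS1 at 308 ± 31.6. IGFBP5 at 241 ± 22.1 and IGF1R at 219 ± 5.74 overlapped across libraries, as did IGFBP6 at 139 ± 45.3 and IGFBP4 at 132 ± 24.5. INSR at 93.0 ± 6.41 and IRS2 at 58.9 ± 4.77 had the lowest means per kilobase of the expressed genes, and their libraries did not overlap each other, while those of INSR overlapped IGFBP6. The order of the means with YK-4-279 was the same, with IGFBP5 at 252 ± 13.01 overlapping IGF1R at 237 ± 3.09, and IGF1R now overlapping IGFBP6 at 210.1 ± 29.6. The first place depended on the transcript, since with the longest annotated transcript of each gene IGFBP2 had 668 ± 103 per kilobase in DMSO and IGF2R had 1130 ± 24.1, and IGFBP6 at 111.5 ± 36.4 came after IGFBP4.

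**Figure D3:**
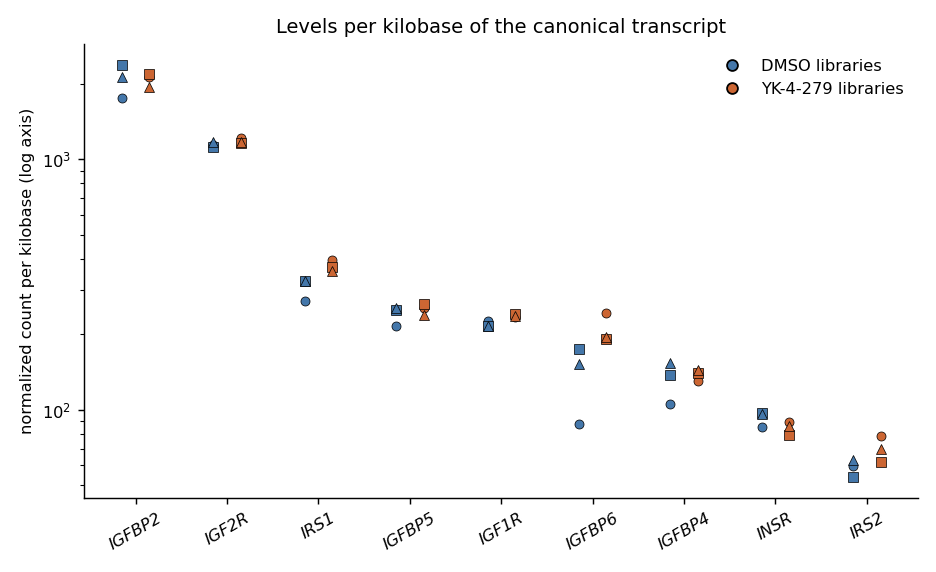
Normalized counts per kilobase of the canonical transcript on a log axis for the 9 expressed genes, ordered by the DMSO mean, with a point per library (circle, square and triangle for replicates 1, 2 and 3). IGFBP2 and IGF2R are the highest genes in both groups, and INSR and IRS2 the lowest.

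Among genes with a mean of at least 100, 10690 in all without the 10 described here, those whose values followed IGF2R most closely were TSTD2 and PCF11. Their centred log2 values differed from those of IGF2R by a root mean square of 0.012 and 0.014 over the 6 libraries, and neither was past the threshold (limma adjusted p = 0.811 and 0.782). IGF2R was used here because it had the highest mean in normalized counts of the 10 genes.

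Of the other genes of the pathway, a list of 87 ligands, processing factors and signalling genes was examined, of which 74 could be tested. With limma 1 of these was higher and 2 were lower at an adjusted p under 0.05, against 1.26% and 2.15% of all genes, and the other 71 were not past the threshold. At an unadjusted p under 0.05 there were 14 of 74, against 18.7% of all genes. The median log2 fold change of the list was -0.01, the same as that of all genes to 2 decimals. DESeq2 and edgeR each called the same 3 genes, IGF2, GAB2 and EIF4EBP2.

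Of the ligands, IGF2 fell with YK-4-279 and IGF1 had at most 2 reads in a library. IGF2 (ENSG00000167244.22, chr11:2129112-2158391, - strand), the growth factor bound by IGF1R, INSR, IGF2R and the binding proteins, had 18756, 17840 and 17093 normalized counts in DMSO and 13037, 13108 and 11988 with YK-4-279. Every treated library was below every control library. The means were 17896 ± 833 and 12711 ± 627 (SD, n = 3 each), a difference of -29.0% or -0.49 on the log2 scale (SE 0.06, interval -0.62 to -0.37, limma adjusted p = 0.00118). IGF2 was past the threshold without each of the 6 libraries in turn, with limma adjusted p-values from 8.06e-12 to 0.0233, and missed it only in the fit whose variance prior had no trend on expression (0.0763). Genes on the same strand, INS-IGF2 among them, share 43.2% of the exon bases of IGF2, so that part of its reads may have been counted elsewhere. IGF1 had 1, 0 and 1 reads in DMSO and 2, 0 and 0 with YK-4-279 and was not tested, and HELLPAR on the opposite strand overlaps 82.5% of its exon bases. The insulin gene INS was listed at 0 in all 6 libraries.

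Per kilobase, IGF2 stood at 3207 ± 149 in DMSO and 2278 ± 112 with YK-4-279 (SD, n = 3 each), above all 9 expressed genes of the axis in DMSO. The ratio of IGF2 to IGF1R normalized counts in the same library was 6.80, 6.78 and 6.48 in DMSO and 4.55, 4.46 and 4.14 with YK-4-279. The ratio of IGF2 to IGF2R was 1.17, 1.13 and 1.04 in DMSO and 0.767, 0.802 and 0.728 with YK-4-279. Both ratios separated the groups without overlap, and in DMSO replicate 1 they lay on the side away from the treated libraries. Not corrected for length, these ratios can be read only between libraries.

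The other genes past the threshold were an adaptor and a translational repressor. GAB2, a docking adaptor that recruits PI3K and the phosphatase SHP2, had 242, 286 and 281 normalized counts in DMSO and 364, 364 and 358 with YK-4-279. It rose without overlap, with a log2 fold change of 0.43 (SE 0.10, limma adjusted p = 0.0299). EIF4EBP2, which holds back cap-dependent translation until mTOR phosphorylates it, had 4599.7, 4174 and 4004 normalized counts in DMSO and 3447, 3465 and 3382 with YK-4-279. It fell without overlap, with a log2 fold change of -0.31 (SE 0.06, limma adjusted p = 0.0172). Both calls were lost when any 1 treated library was left out, with log2 fold changes of 0.42 to 0.43 for GAB2 (limma adjusted p = 0.132 to 0.165) and -0.32 to -0.30 for EIF4EBP2 (limma adjusted p = 0.111 to 0.128). They were also lost in the fit without a variance trend (limma adjusted p = 0.107 and 0.138). The fits without a treated library called only 19 to 46 of all 13930 genes and the fit without a trend called 33, against 475 with all 6 libraries and the trend. The GAB2 call was also lost without DMSO replicate 3 (0.46, limma adjusted p = 0.0603) and with the replicate number as a block (0.43, limma adjusted p = 0.0724). The EIF4EBP2 call was also lost with quantile scaling (-0.24, limma adjusted p = 0.0539).

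**Figure D4:**
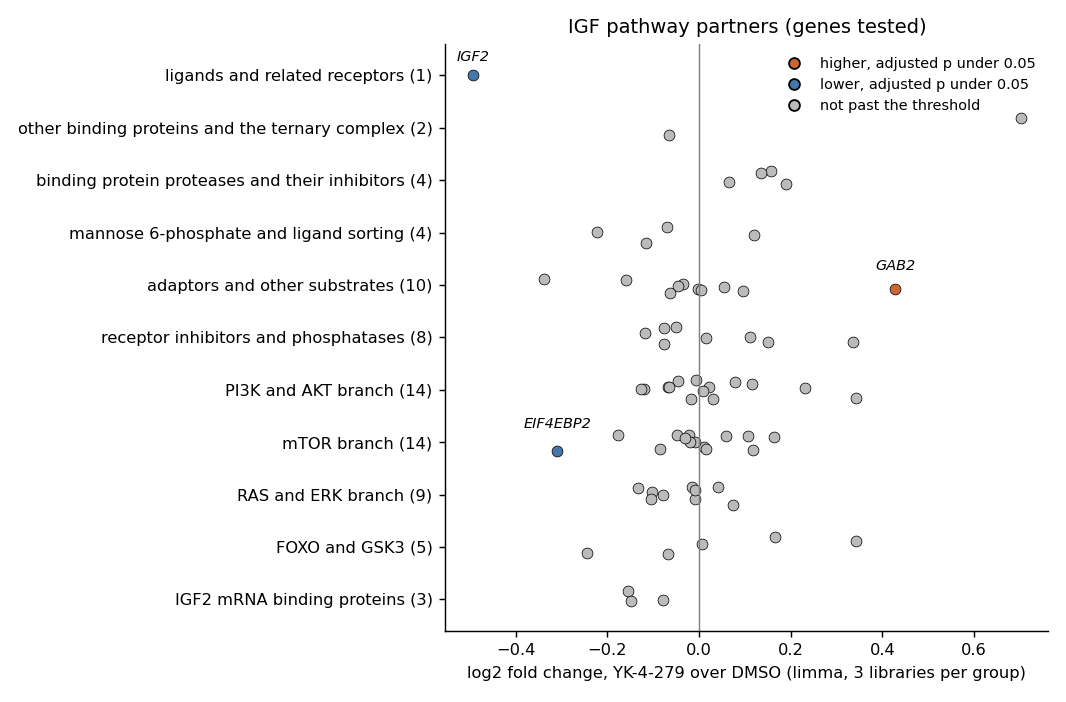
Log2 fold change (limma, YK-4-279 over DMSO, 3 libraries per group) of the 74 pathway genes tested, a point per gene in rows by role, with the number tested in brackets. GAB2 is the orange point past the threshold on the right, IGF2 and EIF4EBP2 the blue points on the left, and the grey points did not pass.

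For the roles other than the ligands, all but 1, the gene with the highest mean is given here with its log2 fold change, and none of these genes was past the threshold. IGFBPL1, a relative of the binding proteins, was at -0.07 (limma adjusted p = 0.581), and the 1 other gene of its group that could be tested, IGFBP7, had 16.4, 12.99 and 17.5 normalized counts in DMSO and 26.6, 27.2 and 24.0 with YK-4-279 (0.70, limma adjusted p = 0.19), a gene named after its values were seen. STC2, an inhibitor of the protease PAPPA, was at 0.14 (limma adjusted p = 0.333) and, without DMSO replicate 1, at 0.04 (limma adjusted p = 0.527), and SORT1, a sorting receptor of the trans-Golgi network, at -0.22 (limma adjusted p = 0.0672). Among 10 adaptors and other substrates tested, RACK1, a ribosomal scaffold that binds IGF1R, was at -0.16 (limma adjusted p = 0.129). Without DMSO replicate 1, SORT1 and RACK1 passed at -0.18 and -0.13 (limma adjusted p = 0.00373 and 0.0246), in a fit that called 13.1% of all genes. Both also passed with each library's dependence on GC content and transcript length taken out, at -0.20 and -0.21 (limma adjusted p = 0.003 and 0.0117), in a fit that called 12.2% of all genes.

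For the inhibitors and phosphatases, 8 tested, the phosphatase gene PTPN11 was at -0.08 (limma adjusted p = 0.503). For the PI3K and AKT branch, 14 tested, the lipid phosphatase gene INPPL1 was at -0.05 (limma adjusted p = 0.729). The kinase genes MTOR and GSK3B, the highest of the mTOR group and of the FOXO and GSK3 group with 14 and 5 tested, were at 0.01 and -0.07 (limma adjusted p = 0.944 and 0.597). The 95% confidence intervals of these 4 all held 0, and without DMSO replicate 1 PTPN11, INPPL1, MTOR and GSK3B were at -0.05, -0.10, -0.0010 and -0.02, none past the threshold. The RAS and ERK group had 9 genes tested. IGF2BP1, which binds IGF2 mRNA, was at -0.08 (limma adjusted p = 0.473), and the 3 IGF2 mRNA binding protein genes all had negative values, from -0.08 to -0.16, with none past the threshold. Without DMSO replicate 1, 16 of the 74 genes passed, against 13.1% of all genes, among them IGF2BP1 at -0.12 (limma adjusted p = 0.0292) and IGF2BP2 at -0.14 (limma adjusted p = 0.0385). IGF2BP3 was at -0.05 in that fit and did not pass (limma adjusted p = 0.554). IGF2BP2 and IGF2BP3 were named after their values were seen.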

How the data were processed

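Per the labels, poly(A) RNA of Rh30 cells was sequenced as paired reads from a directional mRNA library. The authors aligned reads to hg38 with STAR 2.7.9a and, with DESeq2 1.44.0 named in the submitters' processing notes, deposited a normalized count per gene (a signal without gene length) for each library. Of 35269 rows, 1 had no gene name (at most 6 reads in a library) and was left out. Every deposited value was a whole multiple of what 1 read is worth in its library within a tolerance of 1e-06, so 100% of values gave whole reads. No per-sample column was left unused.

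Differences were tested two-sided in R 4.3.3 by limma 3.58.1, with a trended eBayes prior, using log2(normalized count + 1) of genes whose mean was at least 10, with Benjamini-Hochberg adjustment over all 13930 genes and no block. EdgeR 4.0.16 and DESeq2 1.42.0 were run on the recovered reads. The 10 genes and the pathway and marker lists were chosen with earlier results of these data known. From the pathway list, the text names the ligands IGF1 and IGF2, every gene past the threshold and the tested gene with the highest mean of each role (1 is not reported here), and for similar patterns the 2 genes closest to the member with the highest mean. Positions, lengths and exon overlaps are from GENCODE 44 on hg38, and 98.4% of genes tested had a length and GC content. Promoters are from RefSeq on GRCh38.p14. The scripts were tested on simulated counts. Other settings were pseudocounts of 0.5 and 10, no filter, a mean of at least 100, scaling by TMM or quantiles, an eBayes prior without trend, the replicate number as a block, removal of a smooth GC and length dependence from each library, leaving out each library, and the longest transcript.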

Additional observations from a re-analysis of the deposited data

How the results depend on the processing

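The number of genes past the limma threshold, 475 (37.1% of them higher), was 277 with quantile scaling (47.7% higher), 33 with eBayes without trend (90.9%), 180 with the replicate block (43.9%) and 1670 once each library's dependence on GC content and length was taken out (34.6% higher, 12.2% of the genes tested), and 19 to 1823 with 1 library left out. Of the genes of the IGF axis, 0 passed, and 2 (IRS1 and IGFBP6) with DESeq2 and 2, the same genes, with that dependence taken out, and 0 to 4 with 1 library left out (4 without DMSO replicate 1, 2 without DMSO replicate 2). Of the pathway genes 3 passed, 0 with eBayes without trend, 11 with the trend removed and 1 to 16 with 1 library left out. The log2 fold changes that passed were 0.29 for IRS1 and 0.60 for IGFBP6 with DESeq2, and 0.25 and 0.55 with the trend removed (limma adjusted p = 0.0124 and 0.0229). With the trend removed, the sign turned for IGF2R (-0.0012), IGFBP2 (-0.0701), IGFBP4 (-0.0014) and MTOR (-0.0269), and with quantile scaling for INPPL1 (0.0179). Quantile scaling also gave 0.08 for IGF2R, 0.06 for IGFBP2 and 0.11 for IGFBP5, none past the threshold. With 1 library left out, the log2 fold changes ran from 0.11 to 0.14 for IGF1R, -0.19 to -0.0891 for INSR, 0.03 to 0.06 for IGF2R, 0.20 to 0.33 for IRS1, 0.16 to 0.33 for IRS2, -0.11 to 0.11 for IGFBP2, -0.0769 to 0.19 for IGFBP4, -0.0070 to 0.12 for IGFBP5 and 0.35 to 0.84 for IGFBP6. The IGFBP2 sign turned without DMSO replicate 1 (-0.11), YK-4-279 replicate 1 (-0.0083) and YK-4-279 replicate 2 (-0.02), that of IGFBP4 (-0.0769) and IGFBP5 (-0.0070) without DMSO replicate 1, and that of MTOR without DMSO replicate 1 (-0.0010) and YK-4-279 replicate 1 (-0.0105, in a range up to 0.0315). On the longest transcript IGFBP2 had 668 normalized counts per kilobase in DMSO in place of 2087. The cause of these changes was not tested.

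Same-numbered DMSO and YK-4-279 libraries did not deviate together (correlations -0.10, -0.03 and -0.03), so the numbers were not taken as pairs. With the replicate block 0 of the 9 genes passed (IRS1 limma adjusted p = 0.112), and of the pathway genes GAB2 did not pass (0.0724). The median of all genes moved by at most 0.03 on the log2 scale under any setting. With 3 libraries per group, the 95% interval of the log2 fold change was narrowest for IGF2R (-0.06 to 0.16) and widest for IGFBP6 (0.20 to 1.09), the expressed gene with the fewest reads.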
